A study of Mus musculus with 6 samples.

Results

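The interleukin-1 family and inflammasome genes described here are 10 genes of mouse bone marrow-derived macrophages (BMDMs), followed through 3 control libraries (Ctrl) and 3 libraries of cells given zoledronic acid (ZA). Il1a, Il1b and Il18 encode cytokines, Il1rn a receptor antagonist and Il1rap a receptor chain. Nlrp3, Pycard, Casp1, Casp4 and Gsdmd encode the sensor, adaptor, caspases and pore-forming effector that release these cytokines. The members were found by gene symbol, and all 10 were among the 35434 rows of the deposited gene table. BMDMs were grown from C57BL/6 mouse marrow for 7 days with macrophage colony-stimulating factor (M-CSF) at 10 ng/ml, and RNA was taken 12 h after ZA was added. ZA is a nitrogen-containing bisphosphonate, a drug class that slows bone resorption and blocks farnesyl pyrophosphate synthase in the mevalonate pathway. Ctrl and ZA cells differed by ZA alone as labelled, and no genetic change was named in either group. The ZA concentration used for these libraries is not given in the sources used here. The labels do not say whether the 3 libraries of a group came from separate mice or cultures, so p-values measure only the spread between these libraries, which may be technical. No priming agent such as lipopolysaccharide was named in the labels of either group.

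Interleukin-1 signalling in macrophages is controlled at several steps. Il1a and Il1b proteins both bind the type 1 interleukin-1 receptor together with the shared chain encoded by Il1rap, and the antagonist encoded by Il1rn occupies the same receptor without signalling. Pro-interleukin-1β and pro-interleukin-18 are cut by caspase-1, which is activated when NLRP3 joins the adaptor ASC, the product of Pycard, in an inflammasome. Caspase-11, the product of mouse Casp4, recognises intracellular lipopolysaccharide, and both caspases can cut gasdermin D into a membrane pore. RNA levels do not show whether any of these proteins was cut or released.

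Il1a and Il1b are neighbouring genes on mouse chromosome 2, with no other protein-coding gene between them in the RefSeq order, and they stood on opposite sides of their Ctrl values in the ZA libraries. The bases before their start sites are therefore shown, from RefSeq on build GRCm38.p6. RefSeq promoter windows were matched for 9 of the 10 members, in 13 windows, and the 250 bases before each start were searched on both strands for TATAAA and for TGANTCA. Il1a lies on the minus strand and its window is chr2:129309973-129310222. Il1b also lies on the minus strand, with its window at chr2:129371140-129371389. Capitals mark TATAAA in both sequences and, in Il1a, a TGANTCA match.
Il1a: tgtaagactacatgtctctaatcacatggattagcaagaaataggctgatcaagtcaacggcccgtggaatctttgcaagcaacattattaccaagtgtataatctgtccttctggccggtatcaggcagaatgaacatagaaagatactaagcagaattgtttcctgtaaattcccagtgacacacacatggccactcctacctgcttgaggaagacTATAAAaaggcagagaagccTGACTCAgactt
Il1b: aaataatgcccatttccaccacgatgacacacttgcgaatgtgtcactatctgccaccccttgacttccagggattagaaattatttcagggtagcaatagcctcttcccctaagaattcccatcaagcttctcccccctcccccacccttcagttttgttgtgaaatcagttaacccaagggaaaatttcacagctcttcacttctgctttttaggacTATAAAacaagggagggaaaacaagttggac
TATAAA began 32 bases before the Il1a start and 31 bases before the Il1b start. The same 6 letters were found on either strand in 12.4% of 32817 RefSeq windows, and between 35 and 25 bases before the start, on the gene's own strand, in 1.76% of them. Among the other members, Il18 had a match on the opposite strand, 175 bases before its start. TGANTCA, the letters of the AP-1 consensus, began 12 bases before the Il1a start and 141 bases before 1 of the Il1rn starts, and was present in 6.75% of all windows. These matches describe letters only.

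Library sizes were alike, with 41230600 to 42155808 fragments per library, so that a given FPKM (fragments scaled to gene length and library total) rested on a similar number of fragments in each. Of 9788 genes that averaged 1 FPKM or more, limma on log2(FPKM + 1) called 36 at a Benjamini-Hochberg adjusted p under 0.05, a share of 0.368%, with 20 higher and 16 lower in ZA. The median difference over all 9788 genes was 0.01 on that scale. Macrophage markers were abundant. Csf1r, the M-CSF receptor, averaged 772 ± 4.93 FPKM in Ctrl and 835 ± 11.9 FPKM in ZA, and Adgre1, which encodes F4/80, 532 ± 5.93 and 581 ± 13.4 FPKM (SD, n = 3 each). Of the 8 macrophage markers, all tested, 3 had higher levels in ZA with an unadjusted p under 0.05 and 0 with an adjusted p under 0.05 in limma, where 7.5% of all genes tested were higher at the unadjusted threshold. The 3 were Csf1r, Adgre1 and Cd14, a coreceptor for lipopolysaccharide. The 10 neutrophil and granulocyte progenitor markers summed to between 34.8 and 49.7 FPKM in Ctrl and between 30.8 and 35.98 FPKM in ZA, and Ly6g was listed at 0 in all 6 libraries. The 5 T cell markers found summed to between 8.32 and 9.73 FPKM, of which Cd4 gave most. Cd4 held 1169 to 1376 fragments per library, whereas Cd3e, Cd3d, Cd3g and Cd8a each held 10 or fewer. The B cell, dendritic cell and mast cell markers each summed to 1.09 FPKM or less. The 4 stromal markers summed to between 16.8 and 30.1 FPKM in Ctrl and between 15.3 and 21.8 FPKM in ZA. In bulk RNA, fewer cells of a type and less RNA per cell cannot be told apart.

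None of the 8 members that passed the filter on low values was called by limma at an adjusted p under 0.05. At an unadjusted p under 0.05, Casp1 and Casp4 were higher and Il1a and Il1rn were lower in ZA, where the shares over all 9788 genes were 7.5% higher and 4.84% lower. Limma voom on the recovered fragments also called 0 of the 8, with 4 at an unadjusted p under 0.05. Of all 9788 genes, voom called 132, with 1309 at an unadjusted p under 0.05. Il1b and Il1rap had a mean FPKM below 1 and were fitted without a filter, over 19333 genes, where 1 gene was called, a share of 0.00517%. The values of the ZA libraries lay wholly above those of Ctrl for Casp1, Casp4 and Il18, and wholly below for Il1a and Il1rn. Such separation was seen in 11.4% of all genes tested upward and in 6.75% downward.

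**Figure D1:**
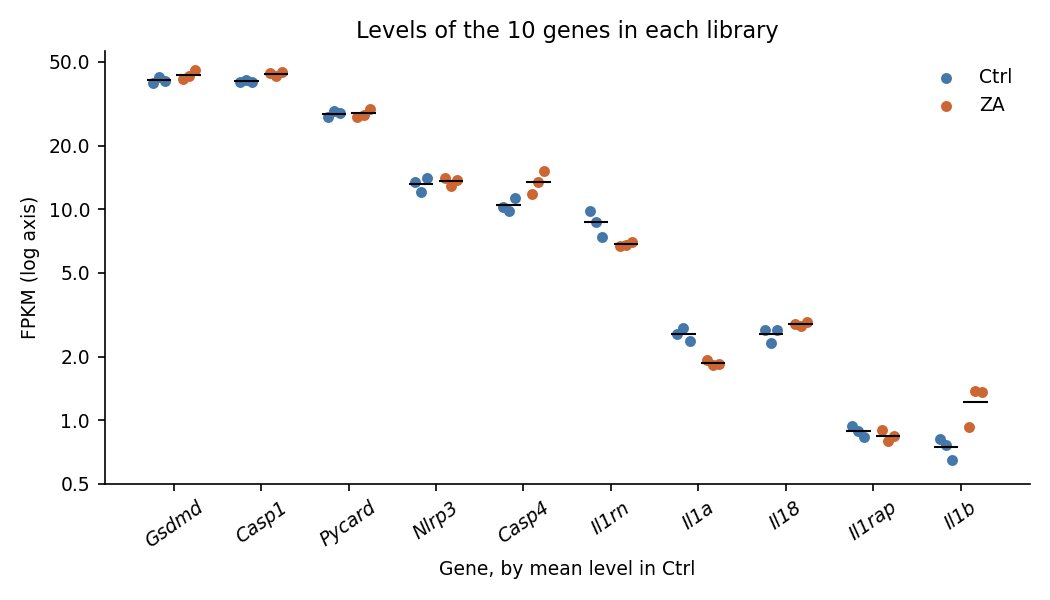
Levels of the 10 genes, in FPKM on a log axis, with 1 point per library, blue for Ctrl and orange for ZA, and a black line at each group mean. Gsdmd and Casp1 lay near 40 FPKM and Il1b and Il1rap near 1 FPKM, and the points of the groups stood apart for Il1a, Il1b, Il1rn, Il18, Casp1 and Casp4.

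Il1a, the gene for interleukin-1α, stood at 2.55, 2.73 and 2.36 FPKM in Ctrl replicates 1 to 3 and at 1.93, 1.83 and 1.85 FPKM in ZA replicates 1 to 3. All ZA values lay below all Ctrl values, and the ZA libraries were tightly grouped. The means were 2.55 ± 0.182 FPKM in Ctrl and 1.87 ± 0.0533 FPKM in ZA (SD, n = 3 each), a ratio of 0.733. On the log2(FPKM + 1) scale, which understates changes of low genes, the difference was -0.31 (SE 0.05), with an unadjusted p of 0.000356 and an adjusted p of 0.0699 by limma, so the gene did not pass the threshold. These values rested on 195 to 224 fragments in Ctrl and 150 to 157 fragments in ZA. Gm14023, a noncoding gene that overlaps Il1a in RefSeq, held 7 to 22 fragments per library, and whether counting used strand is not given in the sources used here.

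Il1b, the gene for interleukin-1β, was the member with the fewest fragments. It stood at 0.814, 0.764 and 0.647 FPKM in Ctrl and at 0.925, 1.38 and 1.36 FPKM in ZA. Every ZA value exceeded every Ctrl value, a separation seen upward in 7.34% of the 19333 genes, although ZA replicate 1 lay nearer to the Ctrl libraries than to the other two ZA libraries. The 95% Poisson interval of ZA replicate 1, 0.724 to 1.16 FPKM, overlapped that of Ctrl replicate 1, 0.627 to 1.04 FPKM, whereas the interval of ZA replicate 2, 1.13 to 1.66 FPKM, lay above it. These intervals cover counting error only. The mean was 0.742 ± 0.0857 FPKM in Ctrl and 1.22 ± 0.255 FPKM in ZA (SD, n = 3 each), a ratio of 1.64. In limma without a filter, the difference was 0.34 (SE 0.09) on the log2(FPKM + 1) scale, with an unadjusted p of 0.012 and an adjusted p of 0.39, where 4.78% of all 19333 genes were higher at an unadjusted p under 0.05.

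The Il1b values came from 51 to 64 fragments in Ctrl and 72 to 108 in ZA. At 51 fragments, the lowest Ctrl count, counting alone gives a relative SD of 14%, and at the higher ZA counts it gives less. The observed coefficients of variation were 11.6% in Ctrl and 20.9% in ZA. A count of 3 fragments would correspond to 0.0381 FPKM, so the gene was well above the limit of detection, but small differences were not detectable at this depth. Il1bos, the antisense RNA that overlaps Il1b in RefSeq, held 0 to 3 fragments per library.

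**Figure D2:**
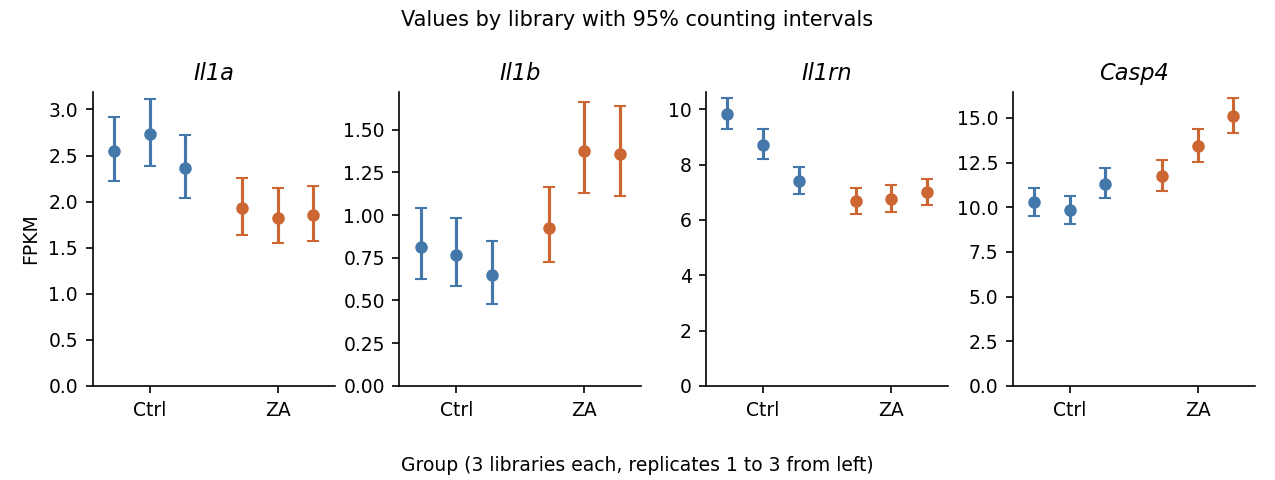
FPKM of Il1a, Il1b, Il1rn and Casp4 in each library, with blue points for Ctrl and orange points for ZA, replicates 1 to 3 from left, bars for the 95% Poisson interval of the fragment count, and vertical axes that start at 0. Il1a and Il1rn were lower in every ZA library and Il1b and Casp4 higher, with ZA replicate 1 nearest to Ctrl for Il1b and Casp4.

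The 2 cytokine genes thus differed in direction. Their summed level was 3.37, 3.49 and 3.01 FPKM in Ctrl and 2.85, 3.203 and 3.21 FPKM in ZA, and the groups overlapped. Il1b made up 24.2%, 21.9% and 21.5% of that sum in Ctrl and 32.4%, 42.9% and 42.3% in ZA. The ratio of Il1a to Il1b was 3.14, 3.57 and 3.66 in the Ctrl libraries, against 2.09, 1.33 and 1.36 in the ZA libraries, which did not overlap. On a log2 scale the mean ratio was lower in ZA by a difference of -1.15. This separation had to follow, since every ZA library was lower in Il1a and higher in Il1b than every Ctrl library. The ratios were described without a test.

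Il18, which encodes interleukin-18, stood at 2.67, 2.31 and 2.66 FPKM in Ctrl and at 2.84, 2.78 and 2.91 FPKM in ZA. The ZA values were all higher, but the lowest of them exceeded the highest Ctrl value by less than the spread within Ctrl. The means were 2.55 ± 0.206 FPKM in Ctrl and 2.84 ± 0.0635 FPKM in ZA (SD, n = 3 each). The difference of 0.12 (SE 0.05) had an unadjusted p of 0.0581 and an adjusted p of 0.424 in limma, and without Ctrl replicate 2 it was 0.07. Il18 overlaps Bco2 and Tex12 in RefSeq, with Bco2 at mean levels of 0.624 FPKM in Ctrl and 0.611 FPKM in ZA.

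Il1rn, which encodes the interleukin-1 receptor antagonist, was the most abundant of the members that act outside the cell. It stood at 9.83, 8.72 and 7.42 FPKM in Ctrl and at 6.68, 6.76 and 7.002 FPKM in ZA. The groups did not overlap, and the Ctrl libraries spread more widely than the ZA libraries, with coefficients of variation of 13.96% and 2.43%. Means were 8.66 ± 1.21 FPKM in Ctrl and 6.82 ± 0.166 FPKM in ZA (SD, n = 3 each), a ratio of 0.788. The difference was -0.30 (SE 0.08), with an unadjusted p of 0.00606 and an adjusted p of 0.204 in limma. Without Ctrl replicate 1 the difference was -0.21, and without Ctrl replicate 3 it was -0.39.

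Granulocyte marker sums leaned lower in ZA, the direction of Il1rn, but the sums of the groups overlapped. The sums of the 10 neutrophil and granulocyte progenitor markers in Ctrl replicates 1 to 3 were 49.7, 39.7 and 34.8 FPKM, the same order as Il1rn in these libraries, and in ZA they were 33.0, 35.98 and 30.8 FPKM, where replicate 3 had the highest Il1rn and the lowest sum. Of the 6 markers tested, 4 were lower in ZA at an unadjusted p under 0.05 and 0 at an adjusted p under 0.05 in limma, beside 4.84% of all genes tested that were lower at the unadjusted threshold. The 4 were Elane, Mpo, Prtn3 and Ngp, genes for granule proteins, named after their values were seen. In Ctrl, Mpo and Ngp followed the order of Il1rn, and Elane and Prtn3 did not. Most of each sum came from S100a8 and S100a9, whose groups overlapped. The 4 stromal markers summed to 30.1, 23.3 and 16.8 FPKM in the Ctrl libraries, again in the order of Il1rn, and to 21.8, 18.9 and 15.3 FPKM in the ZA libraries, the reverse of its order there. The part of either list in the Il1rn values was not tested.

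The level of the antagonist relative to its competitors also differed. The ratio of Il1rn to Il1b was 12.1, 11.4 and 11.5 in the Ctrl libraries, against 7.23, 4.92 and 5.16 in ZA, so that the mean ratio was 2.05 times as high in Ctrl on the log scale. Against the sum of Il1a and Il1b, the ratio of Il1rn was 2.92, 2.50 and 2.46 in the Ctrl libraries, against 2.34, 2.11 and 2.18 in the ZA libraries. The second ratio differed little, by -0.24 on the log2 scale, since Il1a was lower in ZA as well. All Ctrl ratios exceeded all ZA ratios in both cases, again without a test. For Il1rn to Il1b this had to follow, since every ZA library was lower in Il1rn and higher in Il1b than every Ctrl library.

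Il1rap, the accessory chain that the receptors for interleukin-1, interleukin-33 and interleukin-36 share, stood at 0.941, 0.887 and 0.831 FPKM in Ctrl and at 0.892, 0.793 and 0.835 FPKM in ZA. The groups overlapped. Its difference was -0.04 (SE 0.04), with an adjusted p of 0.826 in limma without a filter and a 95% interval from -0.13 to 0.06, and without Ctrl replicate 1 it was -0.0146. Because the length recovered for the gene was 13345 bases, these low levels still rested on 440 to 523 fragments per library, several times more than Il1b at a similar FPKM.

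Nlrp3, the sensor, stood at 13.5, 12.04 and 14.1 FPKM in Ctrl and at 14.01, 12.9 and 13.7 FPKM in ZA. The ZA values lay within the Ctrl range. The difference was 0.03 (SE 0.06; limma adjusted p = 0.847), with an unadjusted 95% interval from -0.10 to 0.17, and without Ctrl replicate 2 it was -0.0259. Pycard, the adaptor gene, stood at 27.3, 29.4 and 28.6 FPKM in Ctrl and at 27.4, 28.1 and 29.9 FPKM in ZA, and the groups overlapped. The Pycard difference was 0.0027 (SE 0.04; limma adjusted p = 0.989), with an interval from -0.09 to 0.09, and its sign turned under median centring and quantile normalization.

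Casp1, the gene for caspase-1, stood at 40.0, 40.9 and 40.3 FPKM in Ctrl and at 44.2, 42.9 and 44.6 FPKM in ZA. All ZA libraries were higher. The spread within groups was the smallest relative to level of any member, with coefficients of variation of 1.14% in Ctrl and 2.10% in ZA. Means were 40.4 ± 0.460 FPKM in Ctrl and 43.9 ± 0.924 FPKM in ZA (SD, n = 3 each), which is 8.79% higher. The limma difference was 0.12 (SE 0.03), with an unadjusted p of 0.00174 and an adjusted p of 0.113. The ratio of ZA to Ctrl means was 1.09 for Casp1, beside 1.08 for Csf1r, 1.09 for Adgre1 and 1.09 for Cd14. For the other macrophage markers it was 1.01 for Cd68, 1.02 for Itgam, 0.979 for Mertk, 1.10 for Fcgr1 and 1.02 for Lyz2. The part of these macrophage markers in the Casp1 values was not tested.

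Casp4, the gene for caspase-11 and the protein-coding neighbour of Casp1 on chromosome 9, stood at 10.3, 9.84 and 11.3 FPKM in Ctrl and at 11.7, 13.4 and 15.1 FPKM in ZA. The groups did not overlap, and ZA replicate 1 was closest to Ctrl. The mean was 10.5 ± 0.762 FPKM in Ctrl and 13.4 ± 1.68 FPKM in ZA (SD, n = 3 each), which is 28.1% higher. The difference was 0.33 (SE 0.08), with an unadjusted p of 0.0043 and an adjusted p of 0.178 in limma. Its level came from 609 to 948 fragments per library, at which counting alone gives a relative SD of 4.05% or less. Casp12, the next gene beyond Casp4, held 21 to 42 fragments per library. The ratio of Casp1 to Casp4 was 3.89, 4.15 and 3.56 in the Ctrl libraries, against 3.76, 3.19 and 2.96 in the ZA libraries, and these groups overlapped.

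Gsdmd, the gasdermin D gene, stood at 39.8, 42.5 and 40.7 FPKM in Ctrl and at 41.6, 42.6 and 45.6 FPKM in ZA. The groups overlapped, since Ctrl replicate 2 exceeded ZA replicate 1. Means were 41.0 ± 1.38 FPKM in Ctrl and 43.3 ± 2.08 FPKM in ZA (SD, n = 3 each). The difference of 0.08 (SE 0.04) had an unadjusted p of 0.0957 and an adjusted p of 0.484 in limma, and without ZA replicate 3 it was 0.04.

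**Figure D3:**
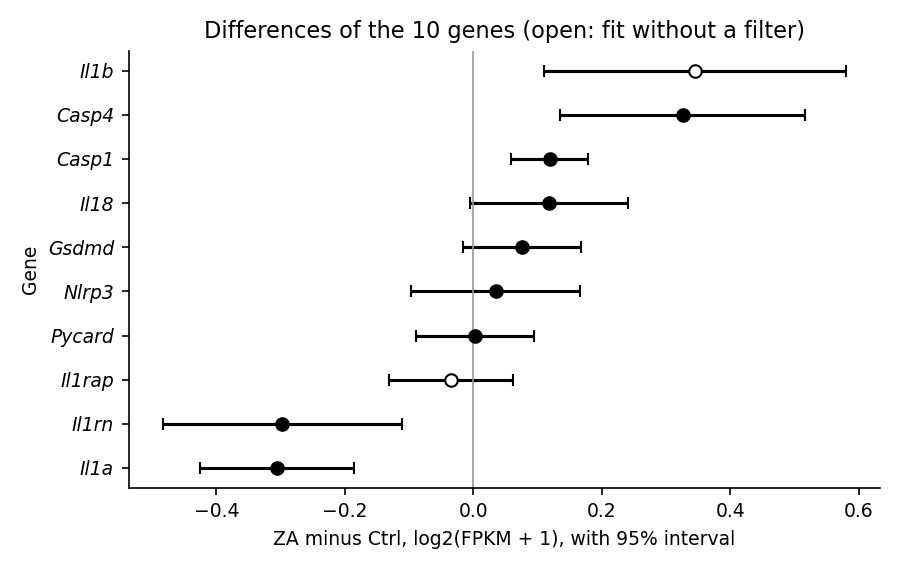
Difference of ZA minus Ctrl for each of the 10 genes on the log2(FPKM + 1) scale, with points for the limma estimate and bars for its unadjusted 95% interval. Filled points come from the 9788 genes that averaged 1 FPKM or more and open points (Il1b, Il1rap) from the fit without a filter, and the intervals of Il1a, Il1rn, Casp1, Casp4 and Il1b do not reach 0.

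Since FPKM is scaled to gene length, the members could be ordered by level. In Ctrl the order was Gsdmd, Casp1, Pycard, Nlrp3, Casp4, Il1rn, Il1a, Il18, Il1rap and Il1b. The ranges of Gsdmd and Casp1 overlapped, as did those of Il1a and Il18, and the gap between Casp4 and Il1rn was within rounding, at 9.84 FPKM for the lowest Casp4 and 9.83 FPKM for the highest Il1rn library. In ZA the order was Casp1, Gsdmd, Pycard, Nlrp3, Casp4, Il1rn, Il18, Il1a, Il1b and Il1rap, with overlap between Casp1 and Gsdmd and between Nlrp3 and Casp4. Il18 exceeded Il1a in all ZA libraries, by ranges that stood apart. The sensor, adaptor, caspase and gasdermin genes each had a higher FPKM than every cytokine gene in all 6 libraries.

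The wider pathway was described by a list of 59 further gene symbols, of which 54 were in the table and 36 passed the filter. The other 5 were old symbols of genes already listed. In limma 0 of the 36 were called at an adjusted p under 0.05, and 5 had an unadjusted p under 0.05, with 4 higher and 1 lower in ZA. That is 13.9% of the list, beside 12.3% of all genes tested. The median difference of the list was 0.03, beside 0.01 over all genes. Limma voom on fragments called 1 of the 36, Irak3, beside 132 of all 9788 genes.

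Among the other ligands of the family, none passed the filter. Il36a, Il36b, Il36rn and Il1f10 were listed at 0 in all libraries, and Il36g, the most abundant of the group, held 2 to 8 fragments per library. The receptors were also scarce. Il1r1, the signalling receptor for interleukin-1, held 44 to 81 fragments per library, at 0.170 to 0.317 FPKM, and the decoy receptor gene Il1r2 held 0 to 2 fragments. Il18bp, which encodes the secreted inhibitor of interleukin-18, was the single gene of the receptor and binding protein group to pass the filter, at 3.05 ± 0.155 FPKM in Ctrl and 3.17 ± 0.112 FPKM in ZA (SD, n = 3 each; limma adjusted p = 0.751).

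Of the 10 receptor signalling genes, all tested, Irak3 stood apart. Irak3 encodes IRAK-M, an inhibitory member of the interleukin-1 receptor-associated kinase family. Its level was 12.9, 13.1 and 12.7 FPKM in Ctrl and 14.3, 14.6 and 15.6 FPKM in ZA, with no overlap. The difference was 0.19 (SE 0.04), with an unadjusted p of 0.00107 and an adjusted p of 0.0977 in limma on FPKM, and an adjusted p of 0.0427 in limma voom on fragments. Myd88, the adaptor of these receptors and the most abundant gene of the group, stood at 42.5 ± 1.14 FPKM in Ctrl and 44.2 ± 1.29 FPKM in ZA (SD, n = 3 each; limma adjusted p = 0.519).

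Of 12 other inflammasome sensors, 8 were tested and 0 had an unadjusted p under 0.05. Aim2, the sensor of cytosolic DNA, had the largest limma statistic of the group, at 3.72 ± 0.0037 FPKM in Ctrl and 3.89 ± 0.113 FPKM in ZA (SD, n = 3 each; adjusted p = 0.638). Naip2, which recognises bacterial secretion system proteins, was the most abundant, at 19.5 ± 0.546 FPKM in Ctrl and 19.8 ± 0.145 FPKM in ZA. Whether its reads are shared with related Naip genes was not tested. All 7 regulators of inflammasomes were tested, and 1 had an unadjusted p under 0.05. That gene was Txnip, whose product binds thioredoxin and NLRP3, at 166 ± 2.09 FPKM in Ctrl and 178 ± 4.89 FPKM in ZA (SD, n = 3 each; limma adjusted p = 0.206).

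Among the other pyroptosis and caspase genes, 5 of 6 in the table were tested and 0 had an unadjusted p under 0.05. Ninj1, needed for membrane rupture in lytic death, was the most abundant, at 359 ± 4.78 FPKM in Ctrl and 366 ± 6.61 FPKM in ZA (SD, n = 3 each). Casp8, an apoptotic caspase that can also cut gasdermin D, had the largest statistic of the group and was lower in all ZA libraries, at 23.3 ± 0.654 against 22.1 ± 0.576 FPKM (limma adjusted p = 0.405). Of 5 transcription factor genes known to act on Il1b, Nfkb1 and Spi1 were higher and Hif1a was lower at an unadjusted p under 0.05. Over all genes tested, the shares at that threshold were 7.5% higher and 4.84% lower. Nfkb1 had a difference of 0.08 (SE 0.03; limma adjusted p = 0.341) and Spi1, which encodes PU.1, one of 0.06 (SE 0.03; limma adjusted p = 0.395). Hif1a had a difference of -0.09 (SE 0.04; limma adjusted p = 0.398). The values of the groups overlapped for Spi1 and Hif1a. Of 16 alternatives, the unadjusted limma p was under 0.05 in 11 for Nfkb1 and in 7 for Spi1. For Hif1a the unadjusted limma p was 0.0466 in the main fit and 0.0506 without a filter.

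**Figure D4:**
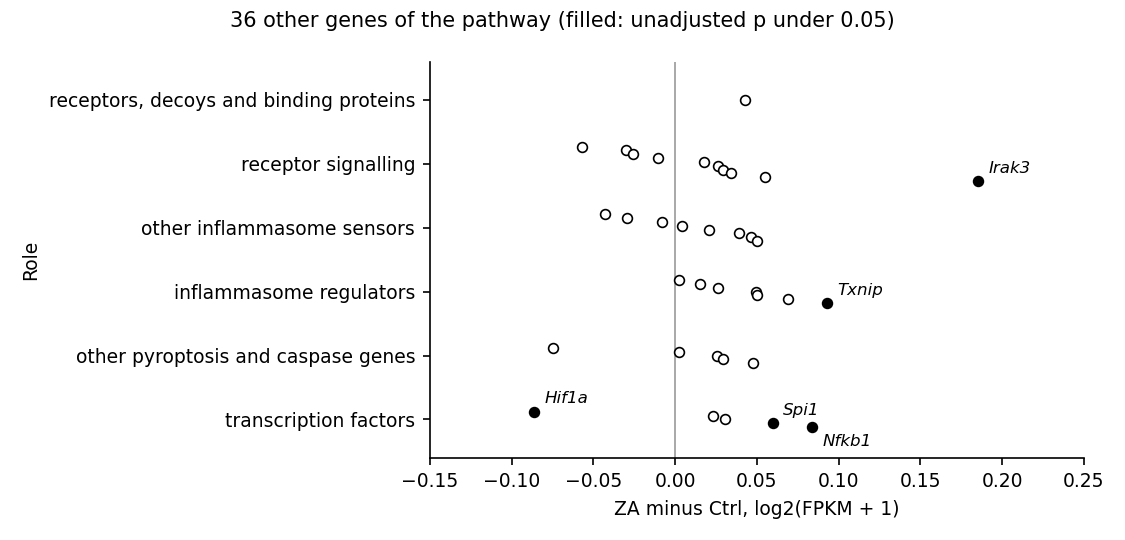
Difference of ZA minus Ctrl, on the log2(FPKM + 1) scale, for the 36 tested genes of the wider list, 1 point per gene, grouped by role, with filled points for an unadjusted p under 0.05. Irak3 lies farthest from 0 at 0.19, and the other 35 genes lie between -0.09 and 0.09.

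The pattern of Il1a over the 6 libraries was most like that of Rrm2, Mcm5, Uhrf1, Cnn2 and Angptl4 among 9787 other genes, by the root mean square difference of deviations from each gene's mean on the log2(FPKM + 1) scale. The distance ranged from 0.03 for Rrm2 to 0.05 for Angptl4, where Il1a itself deviated by 0.16. Rrm2 encodes a ribonucleotide reductase subunit, Mcm5 a subunit of the replicative helicase, Uhrf1 a factor that maintains DNA methylation, Cnn2 an actin-binding calponin and Angptl4 an inhibitor of lipoprotein lipase. Rrm2 stood at 4.23, 4.19 and 3.89 FPKM in Ctrl and at 3.27, 3.01 and 3.07 FPKM in ZA.

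The pattern of Il1b was most like those of Ppp1r3e, Gm16062, C3, Mvd and Nsdhl among 9788 genes, at distances from 0.05 to 0.08, where Il1b itself deviated by 0.20. Ppp1r3e encodes a glycogen-targeting subunit of protein phosphatase 1, C3 the complement component, and Mvd and Nsdhl enzymes of sterol synthesis. C3 stood at 22.7, 21.7 and 21.1 FPKM in Ctrl and at 26.9, 30.2 and 33.2 FPKM in ZA, with ZA replicate 1 nearest to Ctrl, as for Il1b. Mvd stood at 18.7, 18.5 and 17.3 FPKM in Ctrl and at 21.4, 22.8 and 26.3 FPKM in ZA. Gm16062 had only 36 to 60 fragments per library, so its likeness rests on few reads. The likeness of these genes is a description over 6 libraries that share the Ctrl and ZA groups.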

How the data were processed

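RNA of BMDMs was sequenced as paired-end reads in 3 Ctrl and 3 ZA libraries. The authors deposited 1 gene table of FPKM values, on build mm9 per the labels' processing notes. The aligner, counter and annotation are not given in the sources used here. The labels name a VAHTS kit and also a SMARTER kit. Separators between values were missing in all but 11 of 35434 rows. Each row was cut where the values implied whole fragments at 1 gene length and the library totals, which were recovered from the same table. The cuts gave 35387 usable rows and left 47 out. Of 3000 simulated rows, 2755 were restored exactly, 244 were left out and 1 was wrong. Lengths and fragments are therefore estimates recovered from the FPKM values.

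Limma 3.58.1 (R 4.3.3) was fitted to log2(FPKM + 1) of genes that averaged 1 FPKM or more, with a variance trend and no covariate, and p-values were adjusted over all genes by Benjamini-Hochberg. On simulated libraries of 9788 genes with 200 genes changed 2-fold, it called 100% of them and 16 unchanged genes. Restored rows held 99.56% to 99.57% of each library total. No 2 libraries of a group agreed within sampling noise (chi-square per gene 3.52 to 9.73). Alternatives were another pseudocount (0.1), other filters (none, 5 and, added after seeing the data, 0.5), median centring, quantile normalization, no variance trend, a replicate block, voom on fragments (also with the 0.5 filter, likewise added) and leaving out each library. Named genes were the 10 members, the most abundant gene and the gene with the largest statistic of each role in the wider list, any called gene, and the 5 genes most like Il1a and Il1b. The members and lists were chosen with earlier results of these data known. Cd14, Il1r1, Il1r2, Spi1, Hif1a and the genes listed at 0 were named after their values were seen. Old symbols not in the table (5 of 59) were not analysed here. Promoter sequences, gene neighbours and overlaps come from RefSeq on GRCm38.p6.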

Additional observations from a re-analysis of the deposited data

How the results depend on the processing

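The count of members called was 0 under all 16 alternatives, and 3 to 5 members had an unadjusted p under 0.05. Over all genes the 36 calls became 20 with quantile normalization, 1 without a variance trend, 1 without a filter, 9 with a filter of 0.5, 132 with voom on fragments and 129 with voom and that filter, and 0 to 25 with 1 library left out. In the wider list voom called 1 gene, Irak3, with either filter (adjusted p of 0.0427 and 0.0447, log2 difference 0.20), and the 5 genes at an unadjusted p under 0.05 became 3 without a variance trend and 2 to 6 with 1 library left out. The cause was not tested. Deviations from the group mean of same-numbered Ctrl and ZA libraries had correlations of 0.285, 0.0393 and 0.281 over 9788 genes, for replicates 1 to 3. The labels do not say whether the numbers pair the libraries, and pairing was not tested. With a replicate block 78 genes were called, 0 of them members and 0 of the wider list, with Casp4 at an adjusted p of 0.0501 and Il1a at 0.0601 in limma. Directions of Il1a, Il1b, Il1rn, Il18, Il1rap, Casp1, Casp4 and Gsdmd held under each alternative that tested them. Il1b ranged from 0.29 to 0.44 on the log2(FPKM + 1) scale. It was 0.63 with a pseudocount of 0.1 and 0.70 with voom on fragments, which use other scales. Its unadjusted limma p ranged from 0.000877 to 0.0502. The Pycard difference was -0.0102 with median centring and -0.0035 with quantile normalization, and ranged from -0.0315 to 0.0280 with 1 library left out, as did Nlrp3 from -0.0259 to 0.0809 and Naip2 from -0.00081 to 0.0360. The mean log2 ratios ranged, with 1 library left out, from -1.21 to -0.93 for Il1rn to Il1b, from -1.36 to -1.03 for Il1a to Il1b, and from -0.29 to -0.17 for Il1rn to both cytokines. Among the 10 members depth limits Il1b most, at 51 to 108 fragments per library.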
